A study of Mus musculus with 9 samples.

Results

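The genes described here are 9 transcripts that mark B cells and the plasma cells that B cells become: Igkc, Ighm, Jchain, Mzb1, Cd79a, Cd79b, Ms4a1, Fcmr and Blk. They were taken by gene symbol from a deposited table of 17442 genes, and all 9 were found in it. The samples were livers of 9 male C57BL/6 mice, 4 wild type (Msr1+/+) and 5 labelled Msr1-/-, and every mouse of both genotypes had eaten a diet high in fat and cholesterol for 16 weeks and was labelled as having fatty liver disease. Msr1 encodes macrophage scavenger receptor 1, so the comparison addresses how liver transcripts on this diet differ where the receptor gene is labelled as deleted. Neither the age of the mice nor the way the allele was made is given in the labels. Each animal gave 1 library of whole liver, and a lower value in such a library can reflect fewer cells of a type or less RNA per cell, which cannot be told apart here.

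B cells carry an antibody on their surface as the B cell receptor, in which a heavy chain and a light chain bind antigen and the CD79A and CD79B proteins pass the signal inward. Plasma cells secrete the same antibody in large amounts, and antibody transcripts make up much of their messenger RNA. In the liver, B cells lie among other leukocytes in the sinusoids and portal tracts, and antibody of class A, which is joined into dimers by the J chain, is moved into bile by the polymeric immunoglobulin receptor.

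Values are read counts divided by a size factor per liver (normalised counts), from 15006773 to 18238932 reads per liver. A gene was tested where its mean over the 9 livers was 10 or more, which held for 12937 genes and for 6 of the 9 genes described here. Each of the 6 also had a mean above 10 within the livers labelled Msr1-/-, whereas Mzb1, Fcmr and Blk lay below 10 over the 9 livers and were not tested in the fit. Fold changes and adjusted p values are from limma on log2(normalised count + 1), adjusted over all tested genes, with a threshold of 0.05, and they are signed as Msr1-/- minus wild type. Of all tested genes, 0.703% were called lower and 0.665% higher in the livers labelled Msr1-/-, the median log2 fold change was 0.02, and 47.3% were negative. In 3.99% of tested genes every liver labelled Msr1-/- lay below every wild-type liver. Msr1 itself was read in each liver, at 194.5 to 460.5 in wild type and 152.7 to 209.1 in the livers labelled Msr1-/-, so its total count is no clear check of the labels. Wild type 3 stood apart on the first principal component, at -88.7 against -8.3 to 27.6 for the other 8 livers, and calls that change without it are given both ways. Without it, 2.32% of 12823 tested genes were called lower (297 genes), and 332 genes were called higher.

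Markers of both cell types were read at low levels. The B cell transcription factor Pax5 was read in every liver and stood at 14.8 ± 4.5 (SD, n = 4) and 10.7 ± 4.9 (SD, n = 5). Ebf1 and Bcl11a, other transcription factors of B cells, had wild-type means of 6.02 and 3.16, under the level needed for a test, and Ebf1 had no read in Msr1-/- 2. The plasma cell regulators Prdm1 and Irf4 had wild-type means of 8.18 and 6.64, also under that level, and the plasma cell receptor gene Tnfrsf17 was not in the table. Each of the 9 genes had at least 1 read in every liver.

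Antibody transcripts led the set. Per kilobase of exon, wild-type livers held 748 ± 230 of Igkc and 114 ± 32 of Ighm (normalised counts, SD, n = 4), followed by Cd79b at 34.8 ± 9.9, Jchain at 15.9 ± 3.7 and Cd79a at 14.3 ± 6.9. Mzb1 at 5.98 ± 2.43, Fcmr at 5.55 ± 2.25, Blk at 3.72 ± 0.71 and Ms4a1 at 3.02 ± 1.66 came last. Jchain and Cd79a, and each pair of neighbours from Mzb1 to Ms4a1, lay within 1 SD of each other.

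Igkc, the constant region of the kappa light chain that most mouse antibodies carry, fell. It is a single exon of 532 bases on chromosome 6 (70726435 to 70726966, plus strand, GRCm38, the assembly of mm10). The first 150 of its 320 coding bases, from the GENCODE M21 transcript, are shown because Igkc had the highest level of the 9 genes and the only call, and all are in lower case:
Igkc: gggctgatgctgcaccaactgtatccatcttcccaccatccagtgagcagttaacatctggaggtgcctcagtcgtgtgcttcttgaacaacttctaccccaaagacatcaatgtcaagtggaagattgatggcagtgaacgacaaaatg

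The 4 wild-type livers held 465.2, 432.6, 216.5 and 478.1 normalised counts of Igkc (animals 1 to 4), and the 5 livers labelled Msr1-/- held 68.9, 176.1, 129.7, 98.2 and 115.2 (animals 1 to 5). The genotypes did not overlap, and wild type 3 was the lowest wild-type liver. The fall was 3.36-fold, a log2 difference of -1.75 with a 95% interval from -2.40 to -1.10, and the limma adjusted p was 0.0226. Igkc was the only one of the 6 tested genes past the threshold, where 0.703% of all tested genes were called lower. Without wild type 3 the log2 difference was -2.02 (limma adjusted p = 0.00171), and Ighm and Jchain passed as well, 3 of 6, where 2.32% of all tested genes were called lower. The Igkc call did not hold without wild type 1 or 2 or without Msr1-/- 1, 3, 4 or 5 (limma adjusted p from 0.0513 to 0.0703).

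Ighm, the heavy chain of antibody class M, which naive B cells carry on their surface and early plasma cells secrete, stood at 284.4, 222.6, 215.7 and 138.5 in the wild-type livers and at 62.5, 134.1, 126.0, 53.8 and 68.1 in the livers labelled Msr1-/-. No value of the second group reached the first, although wild type 4 lay only just above Msr1-/- 2. The log2 difference of -1.32 (SE 0.31, 2.50-fold lower) had a limma adjusted p of 0.0618, and 0.0415 without wild type 3. Over the 9 fits that each left out 1 liver, the limma adjusted p ran from 0.0415 to 0.140. The gene lies on chromosome 12 (113418558 to 113422730, minus strand), and its total does not separate the membrane form from the secreted form.

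Jchain, the joining chain that links antibodies of classes M and A into polymers, stood at 48.1, 42.2, 26.7 and 42.7 in wild type and at 19.1, 22.5, 22.8, 15.2 and 16.0 in the livers labelled Msr1-/-. The wild-type livers again lay above the others, and wild type 3 was the nearest to them, as for Igkc. The log2 difference was -1.01 (SE 0.24, 2.01-fold lower, limma adjusted p = 0.0700), and -1.19 (adjusted p = 0.0145) without wild type 3. Over the 9 fits that each left out 1 liver, the limma adjusted p ran from 0.0145 to 0.154. Mzb1, a chaperone of the endoplasmic reticulum that assists antibody assembly, did not share this order. It stood at 5.35, 11.6, 5.49 and 6.64 in wild type and at 2.12, 4.89, 3.65, 11.7 and 5.01 in the livers labelled Msr1-/-, so that Msr1-/- 4 held the highest value of the 9. With 30 and 26 reads in all, its log2 difference of -0.45 had a two-sided exact permutation p of 0.270, where the smallest p that 126 splits allow is 0.0159.

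**Figure D1:**
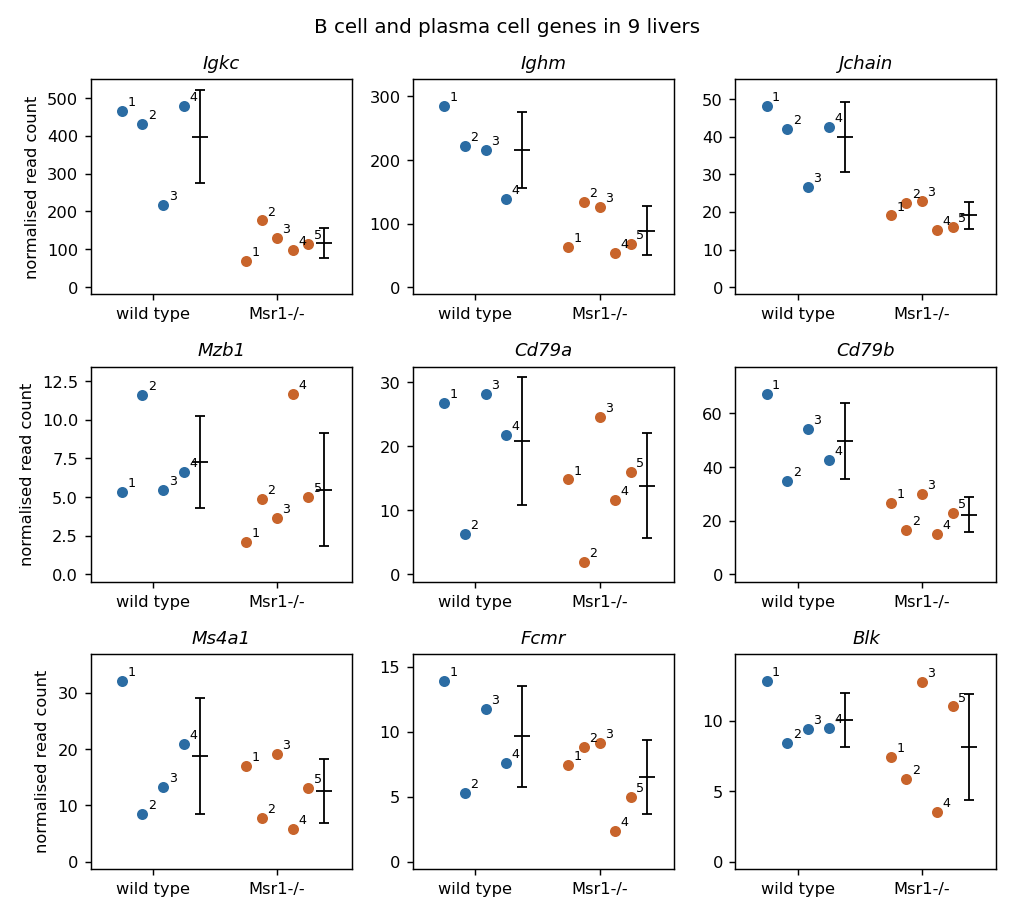
Normalised read counts of the 9 B cell and plasma cell genes in each liver (y axis), by genotype (x axis). Points carry the animal number, and bars show the mean and SD of 4 wild-type and 5 Msr1-/- livers. The genotypes are apart for Igkc, Ighm, Jchain and Cd79b, as in 3.99% of all tested genes, and overlap for the other 5 genes.

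The signalling chains of the B cell receptor differed from each other in how clearly the livers separated. Cd79b stood at 67.4, 34.8, 54.1 and 42.7 in wild type and at 26.5, 16.6, 30.1, 15.2 and 23.0 in the livers labelled Msr1-/-, with no overlap. Its log2 difference was -1.13 (SE 0.27, 2.18-fold lower, limma adjusted p = 0.0723). Cd79a, its partner in the same receptor, stood at 26.7, 6.33, 28.2 and 21.8 in wild type and at 14.8, 1.96, 24.7, 11.7 and 16.0 in the livers labelled Msr1-/-. Wild type 2 and Msr1-/- 2 were the lowest of their genotypes, and the ranges overlapped widely. The log2 difference of Cd79a was -0.67 with a 95% interval from -2.05 to 0.72 (limma adjusted p = 0.697), an interval that holds the value of Cd79b.

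Of the 9 genes, the surface genes Ms4a1 and Fcmr and the kinase gene Blk were low and overlapped between genotypes. Ms4a1, which encodes the B cell surface protein CD20, stood at 32.1, 8.44, 13.3 and 20.9 in wild type and at 17.0, 7.83, 19.2, 5.85 and 13.0 in the livers labelled Msr1-/-. Its log2 difference was -0.50 with a 95% interval from -1.49 to 0.49 (limma adjusted p = 0.680). Fcmr, the receptor for the Fc part of antibody class M, stood at 13.9, 5.28, 11.8 and 7.59 in wild type and at 7.42, 8.81, 9.13, 2.34 and 5.01 in the other livers. Blk, a kinase of the Src family that acts downstream of the B cell receptor, stood at 12.8, 8.44, 9.41 and 9.49 against 7.42, 5.87, 12.8, 3.51 and 11.02. The log2 differences of Fcmr and Blk were -0.52 and -0.37, with two-sided exact permutation p of 0.270 and 0.349, which are not adjusted. The values rest on 41 and 42 reads in all over the 4 wild-type livers.

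In 4 of the 6 tested genes (Igkc, Ighm, Jchain and Cd79b) every liver labelled Msr1-/- thus lay below every wild-type liver, against 3.99% of all tested genes, and the log2 difference of each of the 9 was negative. The livers were not ordered alike by all 9. Wild type 1 held the highest value of 6 genes and Msr1-/- 4 the lowest of 6. Wild type 2 had rank 3 of 9 livers for Igkc and Jchain and rank 2 for Ighm, counted from the highest, but rank 8 for Cd79a and rank 7 for Ms4a1 and Fcmr.

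Other antibody constant regions were listed beside the 9 genes, 8 of 10 found in the table and 7 with a mean of 10 or more. Ighg1, Ighg2b, Iglc1 and Iglc3 reached a mean of 10 over the 9 livers only through wild type, so their values are given with no test. Igha, Ighd and Iglc2 did not pass the limma threshold. The heavy chains of class G, which B cells make after switching class, spread most. Ighg2b stood at 47.1, 41.1, 10.98 and 169.8 in wild type and at 0, 8.81, 3.65, 2.34 and 9.02 in the livers labelled Msr1-/-. Wild type 4 was far above the other wild-type livers, and wild type 3 was just above the highest of the livers labelled Msr1-/-.

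Ighg1 was read at 33.1, 22.2, 0 and 52.2 in wild type and at 0, 0, 0.913, 0 and 2.004 in the livers labelled Msr1-/-, a total of 107 reads against 3. Wild type 3 thus had none, like 3 of the 5 livers labelled Msr1-/-. With reads pooled over livers, the ratio of reads per library total, wild type over Msr1-/-, was 45.2. This ratio is a description, because it leaves out the spread between livers. Ighg2c was not tested, at 11.8, 16.9, 4.71 and 5.69 in wild type and 0, 0.98, 0, 3.51 and 8.01 in the other livers (two-sided exact permutation p = 0.0635).

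Igha, the heavy chain of the class that is carried into bile, stood at 43.8, 35.9, 30.6 and 38.9 against 18.0, 13.7, 5.48, 16.4 and 28.1. These values did not overlap, and the log2 difference of -1.29 had a limma adjusted p of 0.127. Ighd, the heavy chain that naive B cells carry beside class M, did overlap, at 90.9, 46.4, 50.2 and 60.7 against 38.2, 20.6, 55.7, 23.4 and 46.1 (log2 difference -0.79, limma adjusted p = 0.269). The polymeric immunoglobulin receptor gene Pigr had 20216 ± 6189 (SD, n = 4) and 14890 ± 3691 (SD, n = 5), with a limma adjusted p of 0.528.

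**Figure D2:**
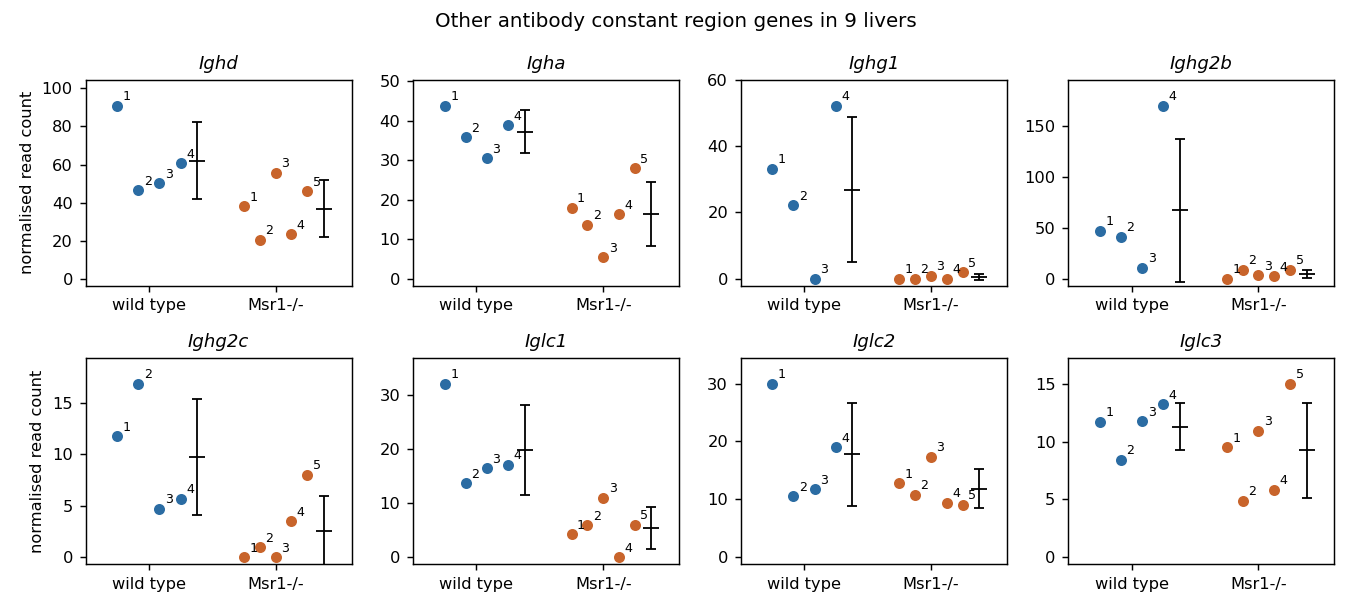
Normalised read counts (y axis) of the other 8 antibody constant region genes found in the table, by genotype (x axis), with the animal number beside each point and bars for the mean and SD, cut at the lower edge of a panel. Igha, Ighg2b and Iglc1 are apart between genotypes, and wild type 3 lies at 0 for Ighg1 with 3 of the 5 livers labelled Msr1-/-.

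The make-up of the heavy chain reads was described per liver, from 365 to 491 reads in wild type and 85 to 210 in the livers labelled Msr1-/-. The grouping of Ighg1, Ighg2b and Ighg2c was made after their values were seen, so no test was run on it. Class G took 18.0%, 20.8%, 5.03% and 48.9% of heavy chain reads in wild type 1 to 4. In Msr1-/- 1 to 5 it took 0%, 5.49%, 2.38%, 5.88% and 11.8%. The exact 95% interval of wild type 3 ran from 3.096% to 7.654%, and that of Msr1-/- 1, with none of 112 reads, reached 3.24%. These intervals cover counting error only. Ighm held 29.7% to 69.1% of the reads in wild type and 42.2% to 75.3% in the livers labelled Msr1-/-, and Ighd held 12.0% to 17.8% and 11.5% to 32.1%.

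**Figure D3:**
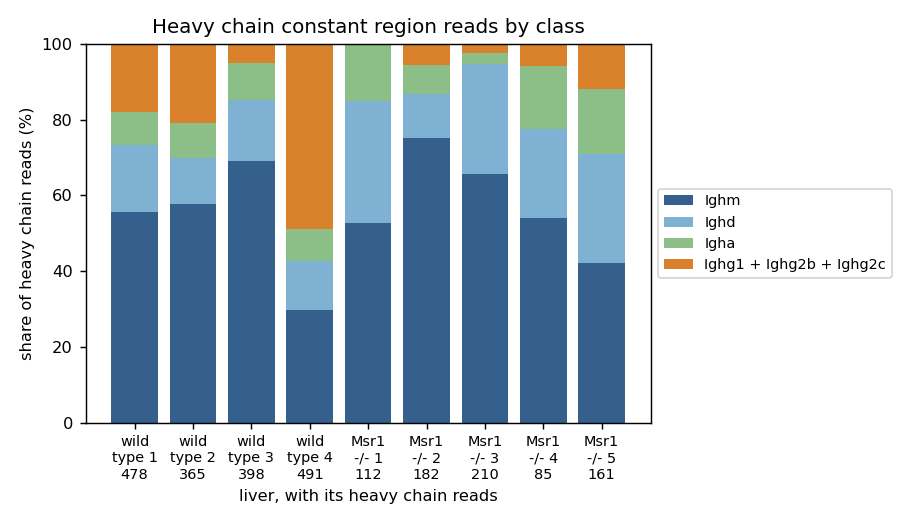
Share of heavy chain constant region reads (y axis, percent) held by Ighm, Ighd, Igha and the class G genes in each liver (x axis, with its number of heavy chain reads). Class G reaches 48.9% in wild type 4 and is 5.03% in wild type 3, inside the range of 0% to 11.8% in the livers labelled Msr1-/-.

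The lambda light chains, the alternative to kappa, did not all separate the genotypes as Igkc did. Iglc1 stood at 32.1, 13.7, 16.5 and 17.1 in wild type and 4.24, 5.87, 10.96, 0 and 6.01 in the livers labelled Msr1-/- with no overlap. Iglc2 stood at 17.8 ± 8.9 (SD, n = 4) and 11.8 ± 3.4 (SD, n = 5), and Iglc3 at 11.3 ± 2.0 and 9.25 ± 4.09, both with overlap, and the limma adjusted p of Iglc2 was 0.603. The first 150 coding bases of the 3 genes, from GENCODE M21 transcripts, show how alike the copies are, which bears on which of them a read is counted for. Capitals mark positions that differ from Iglc2 or have no partner in it in a global alignment:
Iglc1: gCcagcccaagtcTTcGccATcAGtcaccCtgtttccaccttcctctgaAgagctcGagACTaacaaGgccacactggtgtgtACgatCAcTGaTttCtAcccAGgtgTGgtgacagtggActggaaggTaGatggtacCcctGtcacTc
Iglc2: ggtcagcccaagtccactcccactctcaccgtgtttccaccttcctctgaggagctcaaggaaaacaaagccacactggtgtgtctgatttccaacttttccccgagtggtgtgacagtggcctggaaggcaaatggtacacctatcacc
Iglc3: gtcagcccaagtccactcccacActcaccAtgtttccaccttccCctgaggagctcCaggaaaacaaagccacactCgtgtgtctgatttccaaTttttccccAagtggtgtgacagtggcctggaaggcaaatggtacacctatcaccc

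Iglc3 differed from Iglc2 at 7 of these positions and was 96.2% identical to it over the whole coding stretch, so reads of these 2 genes may be assigned to either or to neither. Iglc1 was 72.3% identical to Iglc2, and Igkc 51.5%. Among class G heavy chains, Ighg1 and Ighg2b were 73.6% identical. Lambda took 7.03% to 15.6% of light chain constant reads in wild type and 10.9% to 27.8% in the livers labelled Msr1-/-. In the same libraries the 13 kappa variable segments of the table summed to 34.2, 7.39, 45.5 and 35.1 in wild type and to 7.42, 17.6, 10.04, 8.19 and 11.02 in the other livers. Over these 13 segments alone, wild type 2, with 432.6 of Igkc, had no more reads than Msr1-/- 1, with 68.9 of Igkc. No gene of the table has fewer than 10 reads in all, so the sums leave out rarer segments and cannot stand for all kappa variable reads. The highest kappa segments by mean were Igkv10-96 and Igkv5-39, at 2.34 and 2.08 over the 9 livers, and the highest lambda segments were Iglv1 and Iglv3, at 3.51 and 1.51.

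Ratios between genes were taken within each liver, from normalised counts + 1. The log2 ratio of Igkc to Cd79a was 4.07, 5.89, 2.90 and 4.39 in wild type and 2.14, 5.91, 2.349, 2.97 and 2.77 in the livers labelled Msr1-/-. Msr1-/- 2 was as high as any wild-type liver, and the difference of -1.09 had a two-sided exact permutation p of 0.286. Set against Ptprc, which encodes the leukocyte surface protein CD45, the log2 ratio of Igkc was 1.09, 0.81, -0.93 and 1.23 in wild type and -1.11, 0.27, -0.47, -0.42 and -0.11 in the other livers. Every wild-type liver but wild type 3 lay above every liver labelled Msr1-/-. The difference was -0.92 (two-sided exact permutation p = 0.111), and -1.41 without wild type 3 (p = 0.0357, the smallest that 56 splits allow, two-sided exact permutation). Ptprc was highest in wild type 3, at 412.6 against 203.0 to 246.9 in the other wild-type livers. The log2 ratio of Cd79a to Ptprc was -3.76 ± 0.95 (SD, n = 4) in wild type and -3.59 ± 1.17 (SD, n = 5) in the livers labelled Msr1-/- (difference 0.17, two-sided exact permutation p = 0.794).

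**Figure D4:**
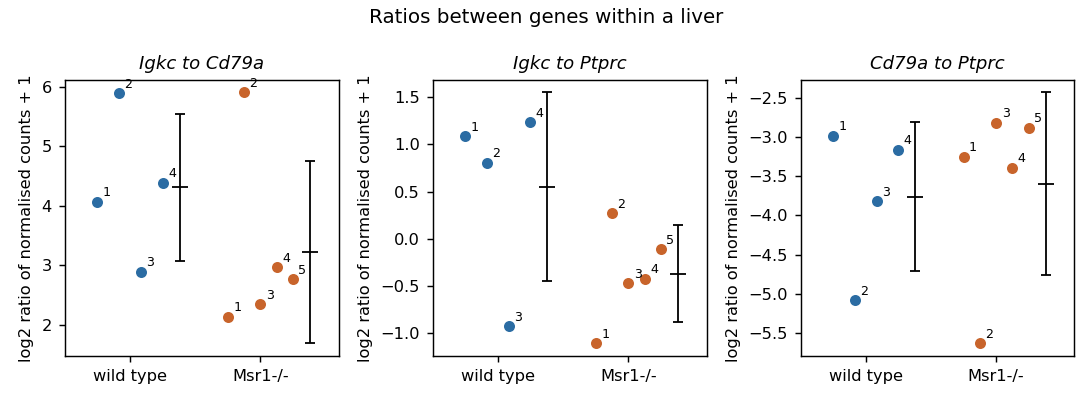
Log2 ratios of normalised counts + 1 between 2 genes within each liver (y axis), by genotype (x axis), with the animal number beside each point and bars for the mean and SD. For Igkc to Ptprc, wild type 3 at -0.93 lies among the livers labelled Msr1-/-, and for Igkc to Cd79a, Msr1-/- 2 at 5.91 lies with the highest wild-type liver.

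Other B cell genes were read from lists, with values below given as mean ± SD of 4 wild-type and 5 Msr1-/- livers unless single livers are listed. Some tested genes had a mean under 10 in the livers labelled Msr1-/- and so reached the filter through wild type: 3 of 14 surface genes, 1 of 15 signalling genes, 2 of 12 transcription factors and 1 of 13 plasma cell programme genes. The counts and medians of these lists are descriptions. Of 14 tested surface genes, each had a negative log2 difference (median -0.75, and -0.70 without wild type 3). Called lower was 1, against 0.703% of all tested genes, and none was called higher. Cd37, a tetraspanin of B cells and other leukocytes, fell 2.01-fold, from 64.2, 66.5, 76.9 and 68.3 to 31.8, 28.4, 43.8, 30.4 and 36.1 (limma adjusted p = 0.0269). The genotypes were apart and wild type 3 lay with its group, but exons of Tead2 overlap Cd37 on the opposite strand, and no strand setting of the counting is given. Cd22, an inhibitory receptor of B cells, stood at 48.2 ± 9.6 and 26.2 ± 11.8 (limma adjusted p = 0.171), and Cd72, another inhibitory receptor, at 62.6 ± 36.0 and 28.2 ± 9.2 (log2 difference -1.04, and -0.70 without wild type 3, adjusted p = 0.228). The Cd37 call did not hold without wild type 1 or 2 or without Msr1-/- 1, 2, 4 or 5 (limma adjusted p from 0.0590 to 0.0749).

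Of 15 tested genes of B cell receptor signalling, 14 had a negative log2 difference (median -0.69, and -0.47 without wild type 3) and none was called. In 6 of the 15 every liver labelled Msr1-/- lay below every wild-type liver, against 3.99% of all tested genes. Many of the 15 also act in myeloid cells. Rac2, a small GTPase of blood cells, stood at 297 ± 156 and 127 ± 23 (limma adjusted p = 0.0763), the adaptor Blnk at 74.8 ± 59.0 and 19.5 ± 7.4 (adjusted p = 0.0783) and the scaffold Bank1 at 49.3 ± 18.8 and 22.4 ± 3.3 (adjusted p = 0.0884). Wild type 3 held 163.2 of Blnk, the other 3 wild-type livers averaging 45.4 ± 4.2 (SD, n = 3). Without wild type 3, 2.32% of all tested genes were called lower. Rac2 and Blnk then passed the limma threshold (adjusted p = 0.0288 and 0.0429) and Bank1 did not.

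Among 12 tested transcription factors of the B lineage, 10 were negative (median -0.59, and -0.50 without wild type 3). None was called higher and 1 was called lower, against 0.703% of all tested genes. Pou2f2, which encodes the octamer-binding factor Oct-2 of B cells and macrophages, fell 4.21-fold. It stood at 52.4, 50.6, 100.4 and 93.0 in wild type and at 7.42, 22.5, 23.7, 15.2 and 17.0 in the livers labelled Msr1-/- (log2 difference -2.07, SE 0.35, limma adjusted p = 0.0239), and each wild-type liver held more than 2 times the highest of the others. Its call did not hold without Msr1-/- 2, 4 or 5 (limma adjusted p from 0.0529 to 0.0703), and held without wild type 3 (0.0143). Spi1, the factor PU.1 of myeloid and B cells, stood at 124.7 ± 47.8 and 55.6 ± 15.0 (limma adjusted p = 0.0577; 0.0360 when wild type 3 was left out), and the lymphoid factor Ikzf1 at 62.1 ± 27.6 and 30.8 ± 8.6 (adjusted p = 0.153).

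Promoters were searched for motifs of B cell transcription factors. RefSeq promoters (GRCm38.p6, 250 bases before to 50 bases after the start) were found for Jchain, Cd79a and Fcmr. The octamer ATGCAAAT, the EBF core CCCNNGGG and the E2A E-box CAGGTG were searched on both strands (the E-box reads CACCTG on the other), and none of these motifs overlaps another. Only exact matches were counted, so a site that differs from these strings at any base was missed. A lack of a match therefore does not show that a factor has no site. None of the 3 promoters held the exact octamer or EBF core, which 1.74% and 13.7% of 32851 promoters held. Each held 1 E-box, which 20.2% of promoters held. Those of Jchain (chr5:88527848-88528147, minus strand) and Cd79a (chr7:24897247-24897546, plus strand), an antibody gene and a receptor gene that separated differently above, are shown on the strand of the gene with the E-box in capitals, at offsets of 5 and -154 from the start:
Jchain: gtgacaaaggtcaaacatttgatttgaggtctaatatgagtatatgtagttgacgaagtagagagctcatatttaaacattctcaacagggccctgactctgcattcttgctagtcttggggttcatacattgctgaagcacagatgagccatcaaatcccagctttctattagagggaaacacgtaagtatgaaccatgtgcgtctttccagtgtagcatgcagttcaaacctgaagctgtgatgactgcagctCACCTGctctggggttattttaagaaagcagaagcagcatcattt
Cd79a: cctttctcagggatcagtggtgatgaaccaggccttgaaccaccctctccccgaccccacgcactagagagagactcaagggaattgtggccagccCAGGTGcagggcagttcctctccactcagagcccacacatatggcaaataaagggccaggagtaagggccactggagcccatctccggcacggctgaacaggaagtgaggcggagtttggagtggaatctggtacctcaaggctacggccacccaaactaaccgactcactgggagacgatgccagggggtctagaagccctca

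The plasma cell programme, a list of regulators and secretory genes, was split in direction. Of its 13 tested genes 6 were negative and 7 positive (median 0.07), and none was called. Hepatocytes, which secrete most plasma proteins, use much of this machinery, and the list summed to 22110 to 27110 in wild type and 22100 to 27490 in the livers labelled Msr1-/-. Derl3, a protein of the endoplasmic reticulum quality control, stood at 41.6 ± 26.7 and 275.8 ± 198.5 (limma adjusted p = 0.0686), the chaperone Fkbp11 at 505 ± 152 and 269 ± 47 (adjusted p = 0.0893), and the disulfide isomerase Pdia4 at 2202 ± 411 and 3272 ± 471 (adjusted p = 0.0914). Without wild type 3, Fkbp11 and Pdia4 passed the limma threshold in opposite directions (adjusted p = 0.00428 and 0.0275). In that fit 297 of all tested genes were called lower and 332 higher.

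Among genes of B cell survival and homing, 6 of 14 could be tested, 3 of them only through wild type, and none was called. The chemokine Cxcl13, which draws B cells into follicles, stood at 33.01 ± 17.68 and 15.1 ± 6.3 (limma adjusted p = 0.318; leaving out wild type 3 gave 0.0435), the chemokine receptor Cxcr4 at 25.3 ± 14.8 and 10.002 ± 2.408 (adjusted p = 0.181), and the cytokine receptor Il21r at 18.3 ± 11.4 and 7.64 ± 2.51. Of 7 tested genes that carry or bind antibody, 6 were negative (median -0.87, and -0.68 without wild type 3). Of the 7, 1 was called lower, against 0.703% of all tested genes. The signalling chain of Fc receptors Fcer1g fell 2.04-fold, from 479 ± 157 to 229 ± 34 (limma adjusted p = 0.0316). Wild type 3 held 714.7 of Fcer1g, and without it the log2 difference went from -1.03 to -0.82 with an adjusted p of 0.00904. The call ended without wild type 1 or 2 or any 1 of the livers labelled Msr1-/- (limma adjusted p from 0.0551 to 0.0867). The Fc receptors Fcgr3 and Fcgr1 had limma adjusted p of 0.0540 and 0.0575, and of 0.0330 and 0.0409 when wild type 3 was left out. In the fit without that liver 2.32% of all tested genes were called lower.

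Genes of other leukocytes were read in the same way. Of 10 pan-leukocyte genes, all 10 were negative (median -1.06, against -1.07 for the 6 tested B and plasma cell genes). Without wild type 3 these medians were -0.78 and -1.13. In 9 of the 10 every liver labelled Msr1-/- lay below every wild-type liver, against 3.99% of all tested genes. Called lower were 3, against 0.703% of all tested genes. These were Il10ra, the receptor for interleukin 10, which fell 2.04-fold, the surface protein gene Cd52, which fell 2.25-fold, and Cytip, an adaptor of leukocyte adhesion, which fell 3.03-fold (limma adjusted p = 0.0308, 0.0308 and 0.0426). Each of these calls ended without wild type 1 and without any 1 of the livers labelled Msr1-/- (adjusted p up to 0.0990). Ptprc itself stood at 270.2 ± 96.7 and 146.3 ± 21.4 (limma adjusted p = 0.0763, and 0.0364 without wild type 3). T cell genes had a median of -0.53 with 10 of 10 negative, none called and none without overlap. Of these, 1 had a mean under 10 in the livers labelled Msr1-/- and so reached the filter through wild type. The summed level of T cell genes was 240.1 to 391.4 in wild type and 128.2 to 295.9 in the livers labelled Msr1-/-, which overlap. The 9 B and plasma cell genes, most of whose counts are Igkc and Ighm, summed to 581.3 to 956.0 and 217.5 to 378.7. Those sums did not overlap, and neither did those of pan-leukocyte genes (2460 to 5484 and 2071 to 2414), natural killer cell genes (78.7 to 148.6 and 43.3 to 58.4) and neutrophil genes (146.1 to 310.7 and 71.1 to 127.2). Sums apart were not limited to leukocyte lists, as those of bile duct genes (619.3 to 1675 and 249.5 to 544.9) did not overlap either. How often the sums of other gene lists stay apart was not tested.

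Kupffer cell genes had a median of -0.88 over 12 genes, with 1 called lower against 0.703% of all tested genes. They summed to 8679 to 18820 in wild type and 5317 to 7167 in the livers labelled Msr1-/-. Medians were -1.43 over 3 neutrophil genes and -0.58 over 2 natural killer cell genes, with none called. No gene of any list could be at 0 in all 9 livers, because each gene of the deposited table had at least 10 reads in all. Markers of plasmacytoid dendritic cells, which share some B cell genes, had a median of -0.37 over 2 tested genes, and their defining marker Siglech stood at 8.88 ± 5.14 and 3.55 ± 2.36. Red cell genes, a sign of blood left in the tissue, had a median of -0.26 over 5 genes with none called, and summed to 3529 to 7317 and 3492 to 7130, which overlap. Platelet genes had a median of -0.47 over 3 genes, hepatocyte genes 0.01 over 8 and sinusoidal endothelial genes -0.01 over 7. No gene was called in these 3 lists. Bile duct genes had a median of -1.15 over 3, with 1 called lower against 0.703% of all tested genes. Among the 3 tested platelet genes, 1 had a mean under 10 in the livers labelled Msr1-/- and so reached the filter through wild type. The same held for 1 of the 3 tested bile duct genes. The part of these other cells in the values of the B cell genes was not tested, and differences between the lists were not tested.

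**Figure D5:**
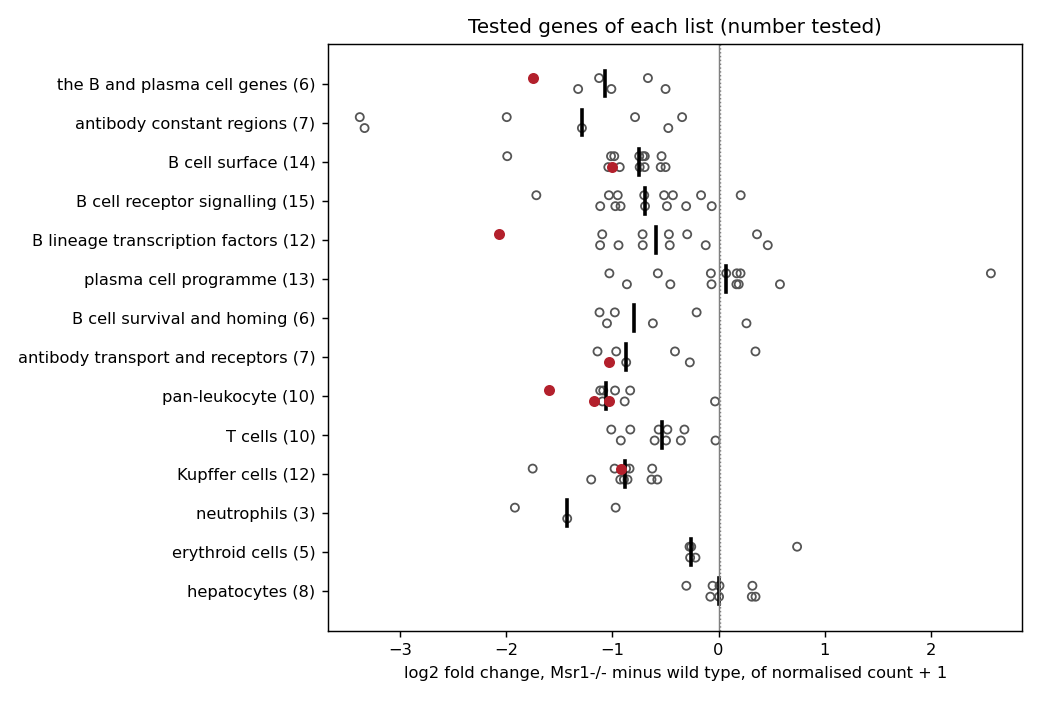
Log2 fold changes (x axis, Msr1-/- minus wild type, of normalised count + 1) of the tested genes in each list (y axis, with the number tested). Filled red points passed a limma adjusted p of 0.05, open points did not, and black bars are list medians. The medians of the B and plasma cell genes and of the pan-leukocyte genes lie at -1.07 and -1.06, and that of the hepatocyte genes at 0.01; without wild type 3 the first 2 were -1.13 and -0.78.

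The tested genes whose values followed Igkc most closely over the 9 livers, by Pearson r of log2(normalised count + 1), were Zfp622 (r = 0.966), Ighg2b (0.948), Med29 (0.945), Dennd1c (0.944) and Bloc1s2 (0.932). Spearman's rho was 0.867, 0.950, 0.867, 0.850 and 0.867. These values include the difference between genotypes, and with each genotype's mean removed the r values were 0.833, 0.867, 0.829, 0.784 and 0.722. Ighg2b, an antibody gene like Igkc, reached the filter only through wild type, so its place among these genes carries no weight as a test. Zfp622, a zinc finger gene, stood at 405 ± 39 in wild type and 287 ± 25 in the livers labelled Msr1-/- (limma adjusted p = 0.0618). These 5 were picked from all tested genes for this likeness, so the values are a description of these livers.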

How the data were processed

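Whole-liver RNA of 4 wild-type and 5 Msr1-/- mice was sequenced from TruSeq RNA libraries, per the labels' protocols. The submitters' processing notes list STAR, HTSeq, DESeq2 and mm10 without versions. Strand and multiple-mapping settings of the counting are not given in the sources used here. The table deposited by the authors holds a signal for every gene in every liver, which is its read count after division by 1 scaling factor for that liver. All values (100%) were whole multiples of the liver's step within 0.01 reads, and whole reads were recovered from them.

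For the main test, log2(value + 1) of the 12937 genes whose mean reached 10 was fitted in limma 3.58.1 (R 4.3.3, intensity trend) with genotype as the only term, and p values were Benjamini-Hochberg adjusted over those genes. Ratios and genes under the filter were tested by two-sided exact permutation of mean log2 values. In simulated counts of 12937 genes, limma found 53% of 100 genes changed 2-fold and 89% of 100 changed 4-fold, and 5.33% of its 150 calls were false. No 2 libraries of a genotype were alike within sampling noise (chi-square over degrees of freedom of at least 21.6).

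The genes and lists were chosen with earlier results of these data known. Named genes are the 9 B and plasma cell genes, Msr1, Ptprc, Pigr, the genes with the lowest p (3 at most) from each B cell or pan-leukocyte list, the 2 highest variable segments of each class and the 5 genes nearest to Igkc. Other lists are given by counts, and 1 gene that the naming rule covers is not reported here. Values of further antibody genes, Pax5, Ebf1, Bcl11a, Prdm1, Irf4, Siglech and Ly6d were added after they were seen. Coordinates and exon lengths come from GENCODE M21 and promoters from RefSeq. Alternatives were pseudocounts of 0.5 and 5, no filter or a mean of 50, TMM or quantile scaling, array weights, counts of recovered reads in edgeR 4.0.16 or DESeq2 1.42.0, a block for animal number, and leaving out 1 liver at a time.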

Additional observations from a re-analysis of the deposited data

Results flagged for a closer look

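A liver was flagged where its gap to the nearest liver of its genotype was large against the range of that genotype, which chance gives for about 1 in 20 groups; 11 of 110 gene or ratio groups examined (10%) were flagged, and none of them was a level of one of the 9 B and plasma cell genes. Wild type 3 was lowest of its group for Pigr, at 10941, and highest for Blnk, at 163.2, and Fcer1g, at 714.7. Msr1-/- 2 was the highest of its group for Spi1, at 82.2, and Fcgr3, at 120.4. It also had the highest log2 ratio of Igkc to Cd79a, at 5.91, and the lowest of Cd79a to Ptprc, at -5.63. This liver held 1.96 normalised counts of Cd79a, which are 2 reads. Msr1-/- 3 was highest for Bank1, at 28.3. Among variable segments, wild type 4 was highest for Igkv10-96, at 12.3, and single livers labelled Msr1-/- held the only reads of their group for Ighv6-3 (1.96 in Msr1-/- 2) and Iglv3 (1.17 in Msr1-/- 4).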

How the results depend on the processing

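The log2 difference of each of the 6 tested genes stayed negative in every alternative run (Mzb1, Fcmr and Blk were not refitted under other settings that could move it), and Igkc ranged from -2.02 to -1.58. Scaling moved the median of all tested genes by less than 0.1. The number of the 6 tested genes that passed was 1; it was 4 with DESeq2 (Igkc, Ighm, Jchain and Cd79b), 2 with array weights and 0 with the animal number as a replicate block, and from 0 to 3 when 1 liver was left out (3 without wild type 3, 2 without wild type 4). Over all genes 177 passed; 773 did with DESeq2, 531 with array weights, 8 with the replicate block and from 36 to 629 when 1 liver was left out. The block ended the Igkc call (limma adjusted p = 0.136) and those of Cd37, Pou2f2, Fcer1g, Il10ra, Cd52 and Cytip. Msr1-/- 5 has no partner in it. Deviations from the genotype mean correlated at 0.0246, -0.0770, -0.102 and 0.218 between same-numbered animals. Between animals of unlike number they correlated at -0.386 to 0.403. The labels do not say whether the numbers pair the animals, and these values cannot decide it. The difference in the log2 ratio of Igkc to Ptprc was -0.69 to -1.41 without 1 liver, and -1.41 (without wild type 3) was the only one past the threshold. That of Cd79a to Ptprc, 0.17, was -0.011 with the block over 4 pairs and ran from -0.27 to 0.68 without 1 liver, negative without wild type 2 (-0.27) or without Msr1-/- 3 (-0.027) or 5 (-0.011). Few reads limit the low genes: Mzb1, Fcmr and Blk had 26 to 42 reads per genotype. Rac2, Blnk, Spi1, Ptprc, Fcgr3, Fcgr1, Fkbp11, Pdia4 and Cxcl13 passed without wild type 3 but not in the main fit. Over the fits that left out 1 liver, their highest limma adjusted p lay between 0.129 (Fcgr3) and 0.536 (Cxcl13).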

Other observations

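The heavy chain variable segments found in the table were 2, and the more abundant did not follow the constant regions. Ighv1-56 stood at 2.14, 3.17, 0 and 5.69 in wild type and at 8.48, 7.83, 14.6, 15.2 and 3.01 in the livers labelled Msr1-/-, so 4 of the 5 lay above every wild-type liver while Igkc and Ighm were lower there. The segment was below the level needed for the limma test. The two-sided exact permutation p was 0.0476, not adjusted, and the segment was singled out after its values were seen.

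Ly6d, a surface marker of early B cells, differed widely between livers of 1 genotype, at 25.7, 10.6, 4322 and 426.9 in wild type. In wild type 3, Igkc was the lowest of the wild-type values and Ly6d the highest of the 9 livers.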
